A study of Mus musculus with 12 samples.

Results

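The fibrillar collagen genes were followed in the inguinal white adipose tissue (iWAT) of mice that overexpressed Notum in the liver. The 9 genes were taken by symbol from the table of raw read counts: Col1a1, Col1a2, Col3a1, Col5a1, Col5a2, Col5a3, Col11a1, Col11a2 and Col27a1. They are 9 of 54134 listed genes, each symbol had a single gene identifier, and all 9 were among the 15585 genes that passed the low-count filter. The animals were 12 male C57BL/6J mice on a chow diet that received 1e12 genome copies of an adeno-associated virus (AAV) through the tail vein at 8 weeks of age, 6 with AAV-GFP as the control and 6 with AAV-Notum. Tissue was collected 4 weeks later after a fast of 4 h. The virus acted in the liver, through a thyroxine binding globulin promoter, and Notum is a secreted enzyme that inactivates Wnt proteins, so that the adipose tissue itself was not the target of the vector. Each sample came from a mouse of its own. In the text, mice are named by group and label number, as in AAV-GFP-2011.

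Fibrillar collagens are the rope-like proteins that give connective tissue its tensile strength. Their chains wind into a triple helix, which needs a glycine at the start of every triplet of residues, and the trimers pack side by side into fibrils. In adipose tissue, types I and III make up the bulk of the fibrils, and type V is mixed into them, where it starts fibril assembly and limits fibril width. Type XI plays the role of type V in cartilage. Type XXVII is a fibrillar collagen with a shorter and interrupted helix, also best known from cartilage.

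The repeat that defines the family could be read from the coding sequence of each gene. The stretches below are the first 9 glycine triplets of the longest uninterrupted run in 5 of the chains, read from the GENCODE vM21 transcripts, with the glycine codon that opens each triplet in capitals. They are shown because the repeat is what makes these genes a family, and Col27a1 because its run is the shortest.
Col1a1: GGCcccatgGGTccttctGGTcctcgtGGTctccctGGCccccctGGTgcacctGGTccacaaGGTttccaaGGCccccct
Col1a2: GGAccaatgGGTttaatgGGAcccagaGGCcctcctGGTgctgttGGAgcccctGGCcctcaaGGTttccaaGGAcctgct
Col3a1: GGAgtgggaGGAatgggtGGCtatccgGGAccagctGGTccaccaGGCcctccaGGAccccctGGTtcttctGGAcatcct
Col5a1: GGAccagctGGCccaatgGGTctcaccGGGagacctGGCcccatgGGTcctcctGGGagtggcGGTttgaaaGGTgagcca
Col27a1: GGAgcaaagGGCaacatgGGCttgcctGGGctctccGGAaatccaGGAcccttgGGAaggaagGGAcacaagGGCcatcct
The uninterrupted run held 338 triplets in Col1a1, 339 in Col1a2, 344 in Col3a1, 338 in Col5a1 and 217 in Col27a1. In Col1a1 it covered 69.8% of the coding sequence, against 35.3% in Col27a1. The runs of Col5a2, Col5a3, Col11a1 and Col11a2 held 337 to 339 triplets, so the chains of types I, III, V and XI were alike in the length of the repeat while their transcript levels differed widely.

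On the GRCm38 build, Col1a1 (ENSMUSG00000001506) lies at chr11:94936224-94953042 and Col1a2 (ENSMUSG00000029661) at chr6:4504814-4541544, both on the plus strand. Col3a1 (ENSMUSG00000026043, chr1:45311538-45349706, plus strand) and Col5a2 (ENSMUSG00000026042, chr1:45374321-45503282, minus strand) are neighbours, with their ends facing each other across 24.6 kb. Col5a1 (ENSMUSG00000026837) lies at chr2:27886425-28039514 on the plus strand and Col5a3 (ENSMUSG00000004098) at chr9:20770050-20815067 on the minus strand. Col11a1 (ENSMUSG00000027966, chr3:114030540-114220718), Col11a2 (ENSMUSG00000024330, chr17:34039437-34066685) and Col27a1 (ENSMUSG00000045672, chr4:63214004-63334991) are on the plus strand. All 9 are protein-coding genes of 51 to 67 exons in the transcript with the longest coding part.

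Libraries held 14711113 to 21618860 counted reads. The tissue label was checked with 12 adipocyte markers, whose summed level was 40210 to 70260 CPM (counts scaled to the library size with the TMM method) in the AAV-GFP group and 35830 to 81030 CPM in the AAV-Notum group. Marker lists showed that the mice differed in more than the virus. The summed level of 15 lymphoid markers was 288 to 2701 CPM in the AAV-GFP group and 931 to 3561 CPM in the AAV-Notum group, and their mean log2 CPM was 0.50 in AAV-GFP-2011, -0.0041 in AAV-GFP-2014 and 3.85 in AAV-GFP-2012, against 5.31 to 7.32 in the other 9 mice. Hepatocyte markers summed to 45.5 to 5579 CPM in the AAV-GFP group, with AAV-GFP-2013 the highest and AAV-GFP-2014 next at 1479 CPM, and to 20.2 to 803 CPM in the AAV-Notum group. Skeletal muscle markers summed to 4424 CPM in AAV-Notum-2042. The RNA integrity number was 5.7 in AAV-GFP-2011 and 6.6 to 7.6 in the others, and RNA of AAV-GFP-2012 alone was isolated on a later date. Notum itself had 1 to 17 reads in the AAV-GFP group. In the AAV-Notum group it had 560 reads in AAV-Notum-2032, 433 in AAV-Notum-2041 and 8 to 16 in the others. These reads are no check of the group labels, since the vector was made to act in the liver.

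Per length, Col3a1 led the family with either length used, while the places of several other chains depended on the length. Levels between genes are given as CPM per kilobase of the transcript with the longest coding part. In AAV-GFP mice, Col3a1 stood at 559 ± 150 CPM per kilobase (SD, n = 6), Col1a2 at 234 ± 55.8 and Col1a1 at 178 ± 42.0. The chain Col5a3 of type V followed at 136 ± 56.7 CPM per kilobase, ahead of Col5a2 at 45.6 ± 12.5 and Col5a1 at 39.0 ± 12.0. Col27a1 was at 3.40 ± 0.67, Col11a2 at 0.83 ± 0.58 and Col11a1 at 0.16 ± 0.086 CPM per kilobase. The order of the means was the same in the AAV-Notum group, from 388 ± 39.3 CPM per kilobase (SD, n = 6) for Col3a1 to 0.12 ± 0.12 for Col11a1. Each chain was above the next in all 12 mice, except that Col5a3 was above Col1a1 in 1 AAV-GFP mouse. The places of Col1a2 above Col1a1 and of Col5a2 above Col5a1 depended on the length used: with the length of all merged exons, a setting chosen after seeing the data, Col1a2 was 0.537 to 0.673 times Col1a1, and Col5a2 was below Col5a1 in 12 of 12 mice. With those lengths Col5a3 was also above Col1a2 in 9 of 12 mice, at 122 ± 50.9 against 101 ± 24.0 CPM per kilobase in the AAV-GFP group (SD, n = 6).

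Type I collagen, the most abundant protein of connective tissue, is a trimer of α1 and α2 chains. Col1a1, which encodes the α1 chain, had a lowest, median and highest level of 848, 945 and 1387 CPM in the AAV-GFP group and of 640, 726 and 894 CPM in the AAV-Notum group. The highest values were those of AAV-GFP-2011 and AAV-GFP-2012, and AAV-Notum-2042 overlapped the AAV-GFP group, while the other 5 AAV-Notum mice had less than any AAV-GFP mouse. The mean was 1055 ± 249 CPM (SD, n = 6) in the AAV-GFP group and 734 ± 93.9 CPM (SD, n = 6) in the AAV-Notum group, which is -0.52 as a log2 fold change (SE 0.16, adjusted p = 0.189 over all 15585 genes in edgeR's quasi-likelihood test, SE being the standard error). The exact permutation test of mean log2 CPM, two-sided as all such tests here, gave p = 0.00866.

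Col1a2 encodes the α2 chain and moved with Col1a1. Its lowest, median and highest levels were 986, 1121 and 1665 CPM in the AAV-GFP group and 779, 793 and 1032 CPM in the AAV-Notum group. Again 5 of 6 AAV-Notum mice had less than any AAV-GFP mouse, and AAV-Notum-2042 was the exception. The log2 fold change was -0.57 (SE 0.16, adjusted p = 0.157 in edgeR's quasi-likelihood test), with an exact permutation p of 0.00649.

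Type III collagen is a homotrimer that accompanies type I in soft, extensible tissues. Col3a1, its only gene, had a lowest, median and highest level of 2258, 2913 and 4128 CPM in the AAV-GFP group and of 1908, 2161 and 2452 CPM in the AAV-Notum group. AAV-GFP-2011 and AAV-GFP-2012 stood apart at 4128 and 4107 CPM, whereas AAV-GFP-2013 and AAV-GFP-2022 lay within the range of the AAV-Notum mice. The AAV-GFP mean was not reached by any of the 6 AAV-Notum mice. The log2 fold change was -0.53 (SE 0.18, adjusted p = 0.236 in edgeR's quasi-likelihood test, exact permutation p = 0.0152).

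Type V trimers usually combine the products of Col5a1 and Col5a2, and Col5a1 is the chain that most type V trimers cannot do without. Col5a1 had a lowest, median and highest level of 214, 339 and 493 CPM in the AAV-GFP group and of 177, 207 and 220 CPM in the AAV-Notum group. With all 12 mice its log2 fold change was the largest among the 6 chains of types I, III and V, though not in the fits with the lymphoid marker level or without AAV-GFP-2011 and AAV-GFP-2014, where that of Col1a2 was larger. The groups overlapped little, with 5 of 6 AAV-GFP mice above every AAV-Notum mouse and AAV-GFP-2013 the exception. The mean was 328 ± 101 CPM (SD, n = 6) in the AAV-GFP group and 205 ± 15.4 CPM (SD, n = 6) in the AAV-Notum group, which is -0.68 as a log2 fold change (SE 0.18, adjusted p = 0.152 in edgeR's quasi-likelihood test, exact permutation p = 0.00649).

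Col5a2, the partner chain and the neighbour of Col3a1 on chromosome 1, had a lowest, median and highest level of 204, 320 and 408 CPM in the AAV-GFP group and of 179, 200 and 242 CPM in the AAV-Notum group. AAV-GFP-2013 and AAV-GFP-2022, at 204 and 207 CPM, lay among the AAV-Notum mice, and the other 4 AAV-GFP mice were above all of them. Its log2 fold change was -0.57 (SE 0.17, adjusted p = 0.189 in edgeR's quasi-likelihood test, exact permutation p = 0.0281).

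Col5a3 encodes an α3 chain that joins some type V trimers and is more restricted among tissues. Its lowest, median and highest levels were 456, 817 and 1276 CPM in the AAV-GFP group and 468, 578 and 620 CPM in the AAV-Notum group. The AAV-GFP mice fell on both sides of the AAV-Notum group: AAV-GFP-2011 (1276 CPM), AAV-GFP-2014 (1170 CPM), AAV-GFP-2021 and AAV-GFP-2012 were above it, and AAV-GFP-2013 and AAV-GFP-2022 were below all AAV-Notum mice. Its log2 fold change of -0.56 (SE 0.25) had an unadjusted p of 0.0421 and an adjusted p = 0.335 in edgeR's quasi-likelihood test. The exact permutation p was 0.139, with an interval of the log2 CPM difference from -1.04 to 0.18, which includes 0. Without AAV-GFP-2011 or without AAV-GFP-2014 the log2 fold change was -0.40 or -0.44, and its unadjusted p was under 0.05 in 3 of the 12 fits that left out a mouse, those without AAV-GFP-2012, AAV-GFP-2013 or AAV-GFP-2022.

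For the 3 remaining chains the interval of the difference included 0 with all 12 mice. Col27a1 had 25.9 ± 5.13 CPM (SD, n = 6) in the AAV-GFP group and 25.6 ± 2.95 CPM (SD, n = 6) in the AAV-Notum group, on 319 to 580 reads per mouse. The interval of its log2 CPM difference was -0.31 to 0.31 (exact permutation p = 0.994). That interval overlaps those of Col1a1 (-0.85 to -0.17) and Col5a1 (-1.03 to -0.21). Col11a2, which encodes a chain of type XI collagen, had 4.48 ± 3.12 CPM (SD, n = 6) in the AAV-GFP group and 6.23 ± 2.25 CPM (SD, n = 6) in the AAV-Notum group, on 26 to 176 reads, with an interval from -0.40 to 1.82 (exact permutation p = 0.191). AAV-GFP-2011, AAV-GFP-2014 and AAV-GFP-2012, the mice with the fewest lymphoid transcripts, had the lowest Col11a2 levels of the 12 mice, at 1.46, 1.79 and 2.56 CPM.

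Col11a1 had only 4 to 42 reads per mouse, and its level of 1.19 ± 0.66 CPM in the AAV-GFP group and 0.95 ± 0.91 CPM in the AAV-Notum group (SD, n = 6) left an interval from -1.66 to 0.64, which spans both directions (exact permutation p = 0.338). AAV-Notum-2042 held 2.72 CPM of Col11a1, and without it the log2 fold change was -0.99 (unadjusted p = 0.0477 in edgeR's quasi-likelihood test) in place of -0.34. Without AAV-GFP-2013 it was -0.02 (unadjusted p = 0.972 in the same test), and with the RNA integrity number as covariate it was -0.0041. Cartilage and bone markers, 11 genes, summed to 1.36 to 2.69 CPM in the AAV-GFP group and 1.47 to 2.78 CPM in the AAV-Notum group, and Matn3 had no reads.

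**Figure D1:**
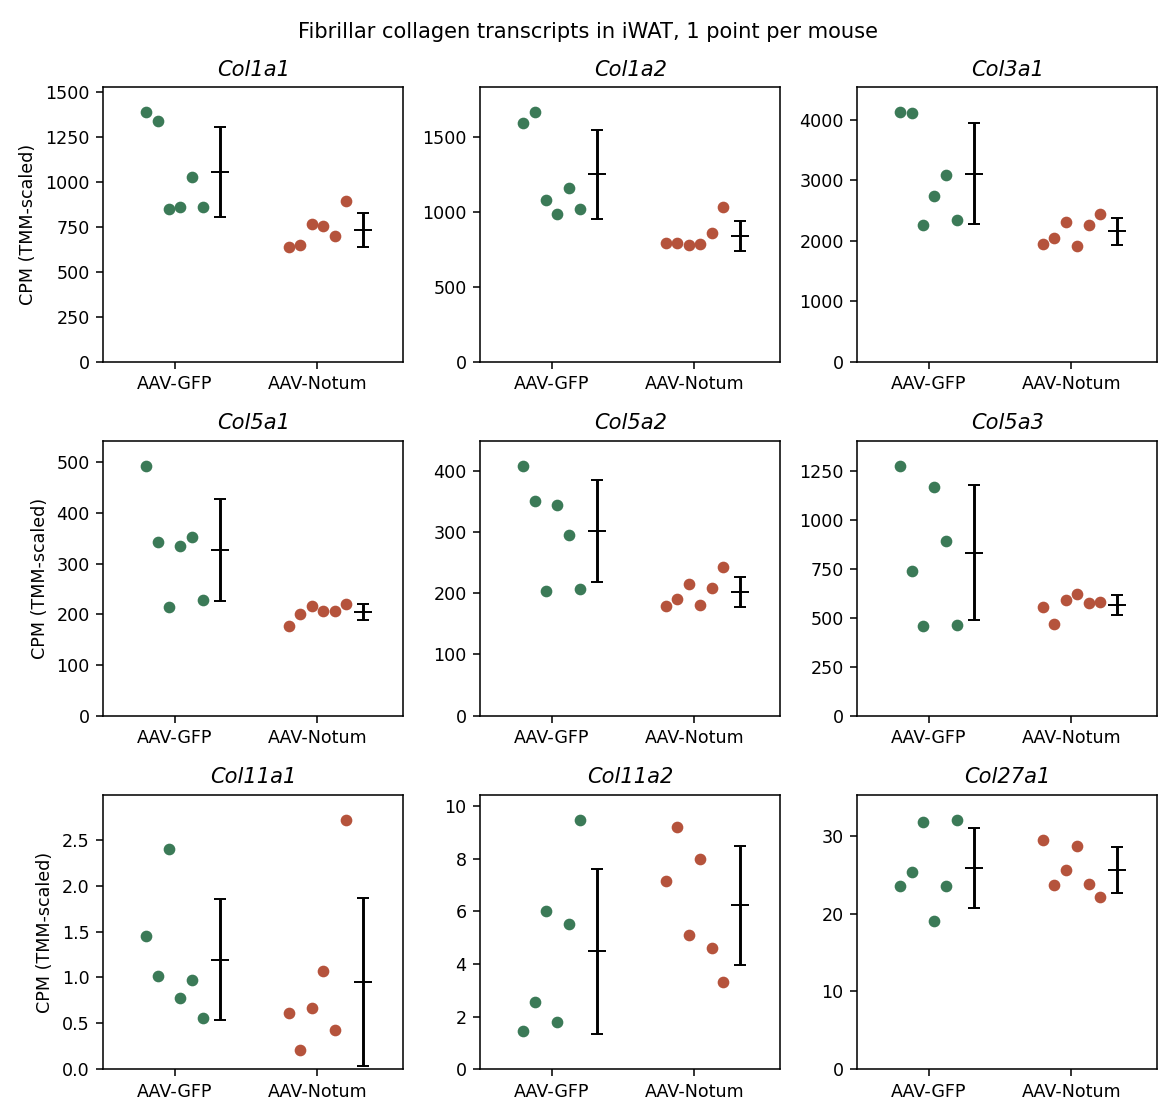
Level of each fibrillar collagen gene in CPM (vertical axis, from 0) in 6 AAV-GFP and 6 AAV-Notum mice; each point is a mouse, and the dash and bars are the mean and SD. The AAV-Notum mice lie close together for the chains of types I, III and V, whereas the AAV-GFP mice spread upwards, with AAV-GFP-2011 the highest of 12 mice in 5 of these 6 chains.

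Across the family, 6 of 9 genes were lower in the AAV-Notum group at an unadjusted p under 0.05 in edgeR's quasi-likelihood test, namely the 6 chains of types I, III and V, and 0 were higher. Over all genes tested, 9.54% were lower and 4.64% higher at that level. After adjustment over all genes, 0 of the 9 passed a threshold of 0.05 in edgeR, where 0.0513% of all genes passed. With DESeq2, the tool of the study's methods, 3 of the 9 had an adjusted p under 0.05, against 2.17% of all genes called lower: Col1a2 (adjusted p = 0.0155), Col5a1 (adjusted p = 0.0216) and Col1a1 (adjusted p = 0.0363). As a median, the log2 fold change was -0.53 for the 9 members and 0.0077 for the 15585 genes tested. For 0 of the 9 was every AAV-Notum mouse below every AAV-GFP mouse, a separation that 0.693% of all genes showed. In bulk tissue, fewer collagen-producing cells and less collagen RNA per cell cannot be told apart.

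The levels of the 6 chains of types I, III and V followed the mouse as well as the group. AAV-GFP-2011, AAV-GFP-2012 and AAV-GFP-2021 were among the 4 highest of 12 mice for all 6 chains. AAV-GFP-2014 was 2nd of 12 for Col5a3 and 3rd for Col5a2, but 6th and 7th for Col1a1 and Col1a2. AAV-GFP-2013 and AAV-GFP-2022, with mean lymphoid marker levels of 6.76 and 6.97 log2 CPM, overlapped the AAV-Notum group in most chains. AAV-GFP-2021, at 6.38 log2 CPM also within the lymphoid range of the AAV-Notum mice, did not overlap it in any of the 6. The SD of log2 CPM was larger in the AAV-GFP group for 8 of 9 members, with a median ratio of SDs of 2.08. Over all genes tested, 63.9% had the larger SD in the AAV-GFP group, with a median ratio of 1.22, so part of this imbalance was shared with the other genes. For Col5a1 the SD of log2 CPM was 0.45 in the AAV-GFP group and 0.11 in the AAV-Notum group, and for Col5a3 it was 0.64 and 0.14.

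The lymphoid marker level moved with these results. With it as a covariate in the edgeR fit, 3 of the 9 members kept an unadjusted p under 0.05 where 4.85% of all genes were lower, namely Col1a1 (log2 fold change -0.37), Col1a2 (-0.45) and Col5a1 (-0.39). Col3a1 was at -0.33, Col5a2 at -0.25 and Col5a3 at -0.07. Col27a1 moved from -0.02 to -0.20 (unadjusted p = 0.0841 in edgeR's quasi-likelihood test), and Col11a2 turned from 0.48 to -0.17. Without AAV-GFP-2011 and AAV-GFP-2014, the 2 mice with the fewest lymphoid transcripts, 5 of 9 kept it where 4.95% of all genes were lower: Col1a1 (-0.48), Col1a2 (-0.55), Col3a1 (-0.45), Col5a1 (-0.48) and Col5a2 (-0.39), while Col5a3 was at -0.18 and Col27a1 at -0.14. When the fit held the RNA integrity number instead, the same 5 genes kept it where 5.95% of all genes were lower, with log2 fold changes of -0.44 to -0.53. Without AAV-GFP-2012, the mouse of the later RNA isolation, all 6 kept it where 7.11% of all genes were lower, with Col1a1 at -0.44 and Col3a1 at -0.43. Among these 6 chains, Col1a2 changed least when the 2 mice were left out, and Col5a3 changed most. What part lymphoid cells in the tissue had beyond these fits was not tested.

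**Figure D2:**
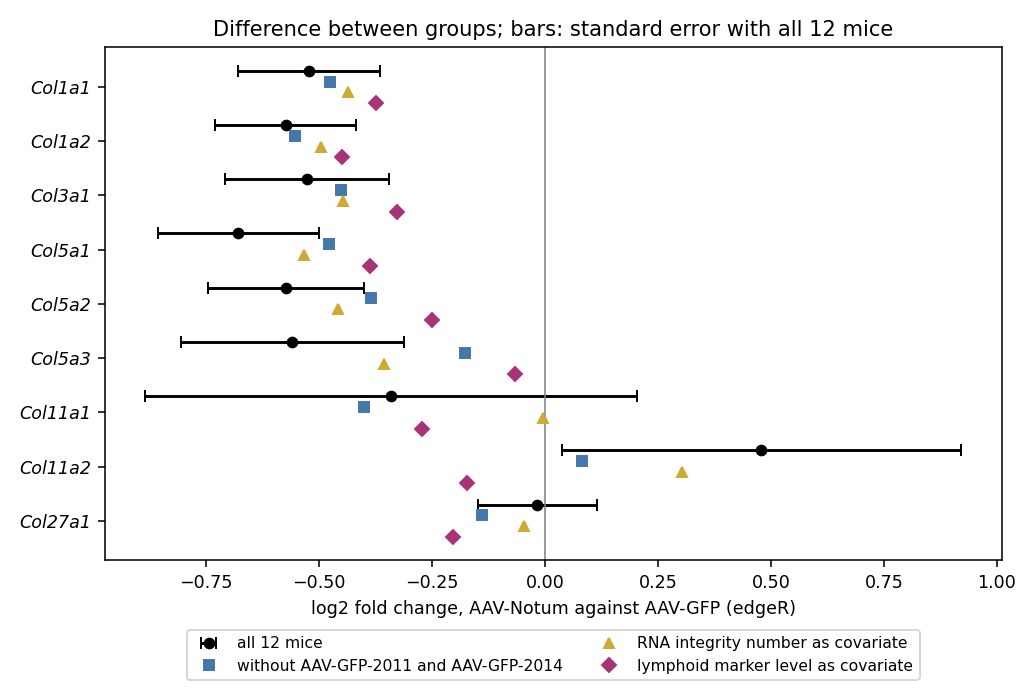
Log2 fold change of AAV-Notum against AAV-GFP mice (horizontal axis) for the 9 genes with all 12 mice (circles, with the standard error) and in 3 other fits. Points of Col1a1 and Col1a2 stay left of 0 in all 4 fits, whereas Col5a3 moves from -0.56 to -0.07 with the lymphoid marker level as a covariate.

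**Figure D3:**
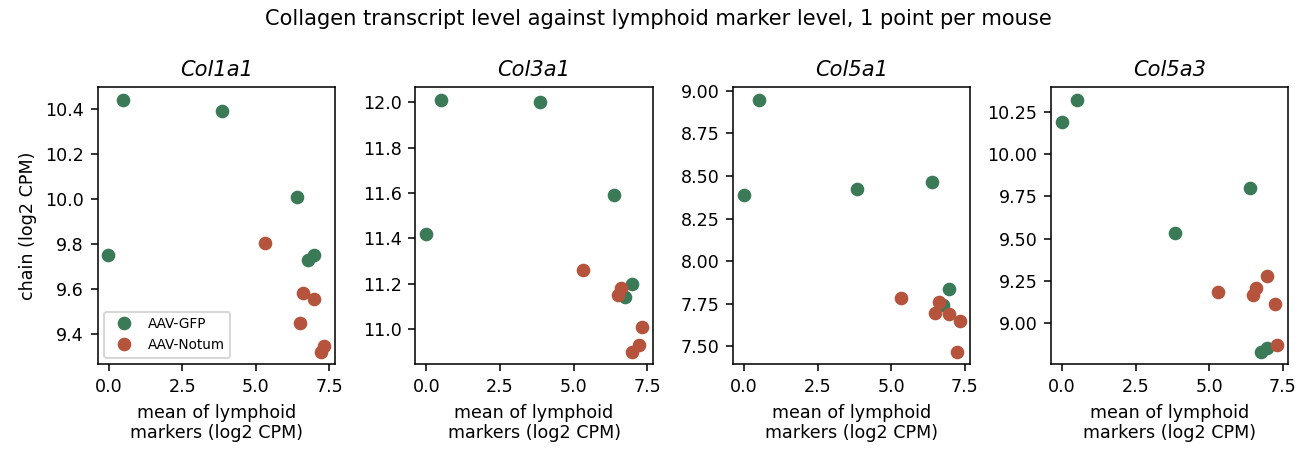
Level of 4 collagen genes (vertical axes, log2 CPM, each on a scale of its own) against the mean log2 CPM of 15 lymphoid markers (horizontal axis), with 1 point per mouse. The AAV-GFP mice to the left, at 0.50, -0.0041 and 3.85, are AAV-GFP-2011, AAV-GFP-2014 and AAV-GFP-2012, and the 2 to the far left have the highest Col5a3 levels.

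Fibroblasts and adipose progenitors make most fibrillar collagen, and their markers and those of other cell types were looked at beside it. The summed level of 15 such markers was 10210 to 23680 CPM in the AAV-GFP group and 9561 to 16830 CPM in the AAV-Notum group. Gsn alone had 8269 to 21300 CPM and 8085 to 14920 CPM, and so carried these sums. The other 14 markers, summed without Gsn after seeing the data, had 1897 to 2746 CPM in the AAV-GFP group and 1476 to 1973 CPM in the AAV-Notum group. At an unadjusted p under 0.05, 5 of the 15 were lower and 0 higher, where 9.54% of all genes were lower and 4.64% higher, and the median log2 fold change was -0.28. The sign was not uniform, since 5 of the 15 had a positive value, among them Thy1 at 0.71, Dpp4 at 0.65, Icam1 at 0.44 and Ly6a at 0.28. Pdgfra, the receptor that marks adipose progenitors, had a log2 fold change of -0.49 (adjusted p = 0.167 in edgeR's quasi-likelihood test). With or without Gsn, the lowest sum was that of AAV-Notum-2031, which also had the lowest Col1a1, Col5a1 and Col5a2. Endothelial markers were lower for 3 of 8 (median -0.33, summed 627 to 1004 CPM and 603 to 790 CPM), and Schwann cell markers for 1 of 7 (median -0.46, 7 of 7 negative, summed 129 to 320 CPM and 104 to 318 CPM). Macrophage markers were lower for 2 of 10 (median -0.09, summed 521 to 1592 CPM and 927 to 1758 CPM), among them Cd163 at -0.94, while 4 of the 10 had a positive value. Smooth muscle and mural markers were lower for 2 of 8 (median -0.12, summed 475 to 706 CPM and 474 to 686 CPM), among them Acta2 at -0.61, while 4 of the 8 had a positive value. Adipocyte markers were lower for 1 of 12 (median -0.25), with 9 of the 12 negative, so a median near that of the fibroblast list was not particular to it. Hepatocyte markers had a median of -2.80 with 8 of 8 negative, of which 2 were lower. Lymphoid markers had a median of 0.97 with 15 of 15 positive, of which 0 were higher. Skeletal muscle markers had a median of 1.41 with 8 of 8 positive, of which 0 were higher. Their sum reached 4424 CPM in AAV-Notum-2042. The part of these cell types in the collagen result was not tested.

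Whether the chains changed in proportion was addressed with 11 ratios of chains within each mouse, on the log2 scale, where the scaling of the library cancels out. None of the 11 differed between the groups at an unadjusted p under 0.05 in the exact permutation test, and adjusted p-values over the 11 ratios were 0.619 to 0.870. The ratio Col1a1/Col1a2 had a mean log2 value of -0.25 ± 0.071 (SD, n = 6) in the AAV-GFP group and -0.20 ± 0.13 in the AAV-Notum group. The difference of 0.05 had an interval from -0.086 to 0.179 (exact permutation p = 0.429), while each of the 2 chains had an SD of 0.33 on its own in the AAV-GFP group. In the AAV-Notum group the chains had SDs of 0.18 and 0.16, against 0.13 for their ratio. The ratio Col3a1/Col1a1 differed by 0.01 (interval -0.14 to 0.16, exact permutation p = 0.870), and Col3a1/Col1a2 by 0.06 (interval -0.11 to 0.23, exact permutation p = 0.483).

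Among the type V chains, Col5a1/Col1a1 differed by -0.12 (interval -0.42 to 0.17, exact permutation p = 0.323) and Col5a1/Col5a2 by -0.09 (interval -0.26 to 0.073, exact permutation p = 0.225). AAV-GFP-2011, AAV-GFP-2014 and AAV-GFP-2021 had the highest Col5a1/Col1a1 ratios of the 12 mice, at -1.49, -1.36 and -1.54, and the other 3 AAV-GFP mice were at -1.92 to -1.99, within the range of the AAV-Notum mice. The ratio Col5a2/Col3a1 of the 2 neighbouring genes had an SD of 0.041 in the AAV-Notum group, where Col5a2 and Col3a1 had SDs of 0.17 and 0.15, and of 0.20 in the AAV-GFP group. AAV-GFP-2014 had the highest value, -2.99, against -3.55 to -3.34 in the other 5 AAV-GFP mice. Col5a3/Col5a1 was higher in the AAV-Notum group by 0.17 (interval -0.14 to 0.45, exact permutation p = 0.221), with 5 of 6 mice above the AAV-GFP mean. Without AAV-GFP-2014 this difference was 0.28 (exact permutation p = 0.0260), and without both AAV-GFP-2011 and AAV-GFP-2014 it was 0.32 (exact permutation p = 0.0143), neither adjusted over the ratios.

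The largest difference relative to its spread was that of Col27a1 to Col1a1, a chain whose level was alike in the groups over a chain that was lower. Its mean log2 value was -5.33 ± 0.49 (SD, n = 6) in the AAV-GFP group and -4.84 ± 0.29 (SD, n = 6) in the AAV-Notum group, a difference of 0.50 with an interval from -0.016 to 1.00 (exact permutation p = 0.0671, adjusted p = 0.619 over the 11 ratios). The ratio of each of the 6 AAV-Notum mice exceeded the AAV-GFP mean, but AAV-GFP-2013 and AAV-GFP-2022, at -4.73 and -4.74, were among the AAV-Notum mice. This p was under 0.05 in 3 of the 12 tests that left out a mouse, with differences over the 12 tests of 0.39 to 0.62. Without both AAV-GFP-2011 and AAV-GFP-2014 the difference was 0.32 (exact permutation p = 0.243). The scarce ratios were not informative: Col11a2/Col11a1 had an interval from -0.72 to 2.89 and Col11a1/Col5a1 one from -1.02 to 1.24.

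**Figure D4:**
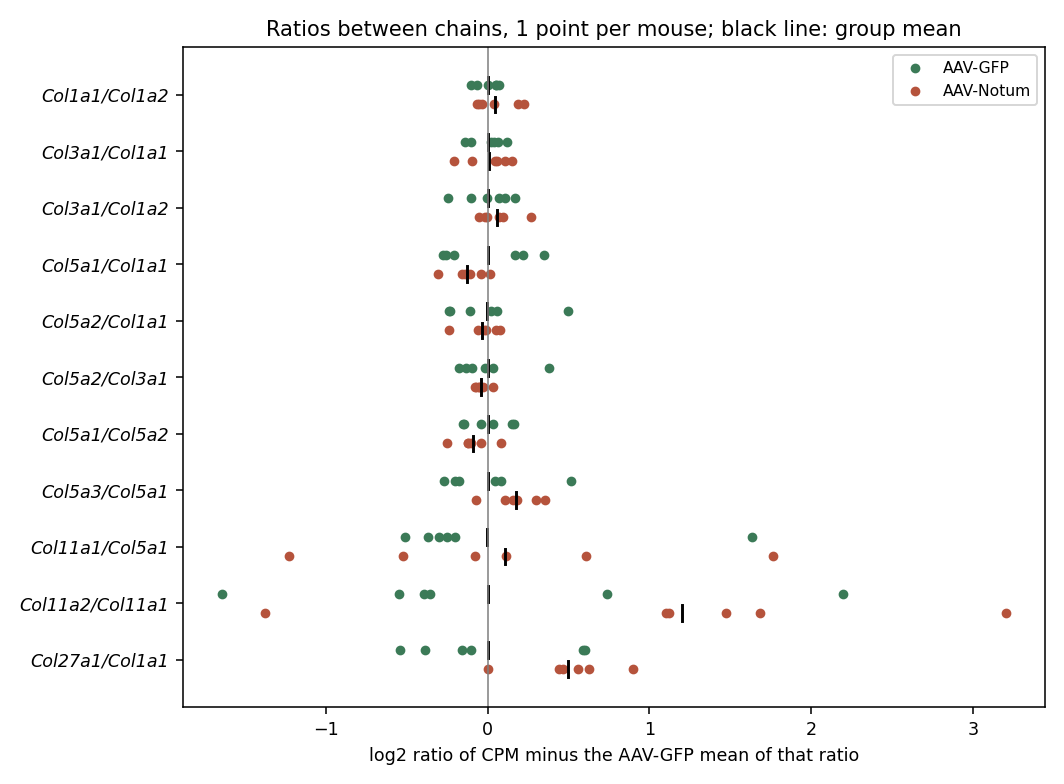
Log2 ratio of each pair of chains in each mouse, minus the AAV-GFP mean of that ratio (horizontal axis); points are mice and black lines are group means. The points of the 2 groups overlap in all 11 ratios, and the mean of Col27a1/Col1a1 is 0.50 higher in the AAV-Notum group.

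The fibrillar collagen transcripts were also added up and divided by type in each mouse. The 9 genes together had 6911 ± 1734 CPM (SD, n = 6) in the AAV-GFP group and 4738 ± 424 CPM (SD, n = 6) in the AAV-Notum group, which is a description of the members with no test. They took 0.672 ± 0.139% of all reads in the AAV-GFP group and 0.480 ± 0.0207% in the AAV-Notum group. Per length, type I made up 34.7 ± 3.37% of the fibrillar collagen transcripts in the AAV-GFP group and 34.2 ± 1.45% in the AAV-Notum group. Type III made up 46.6 ± 1.65% and 47.3 ± 1.78%, and type V 18.3 ± 4.44% and 18.0 ± 1.12%. Type XI made up 0.095 ± 0.073% and 0.16 ± 0.055%, and type XXVII 0.31 ± 0.13% and 0.41 ± 0.076%. Over the 12 settings that left out a single mouse, the difference between the groups was -1.50 to 0.33 percentage points for type I and -1.08 to 1.15 for type V, so its sign depended on single mice. The type V share was uneven among AAV-GFP mice. As a share of the fibrillar collagen reads, without division by length, it was 28.6% in AAV-GFP-2014 (95% Wilson interval 28.4 to 28.9) and 16.7% in AAV-GFP-2012 (16.5 to 16.9), while AAV-Notum mice were at 19.1 to 22.4%. These intervals cover counting error only.

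**Figure D5:**
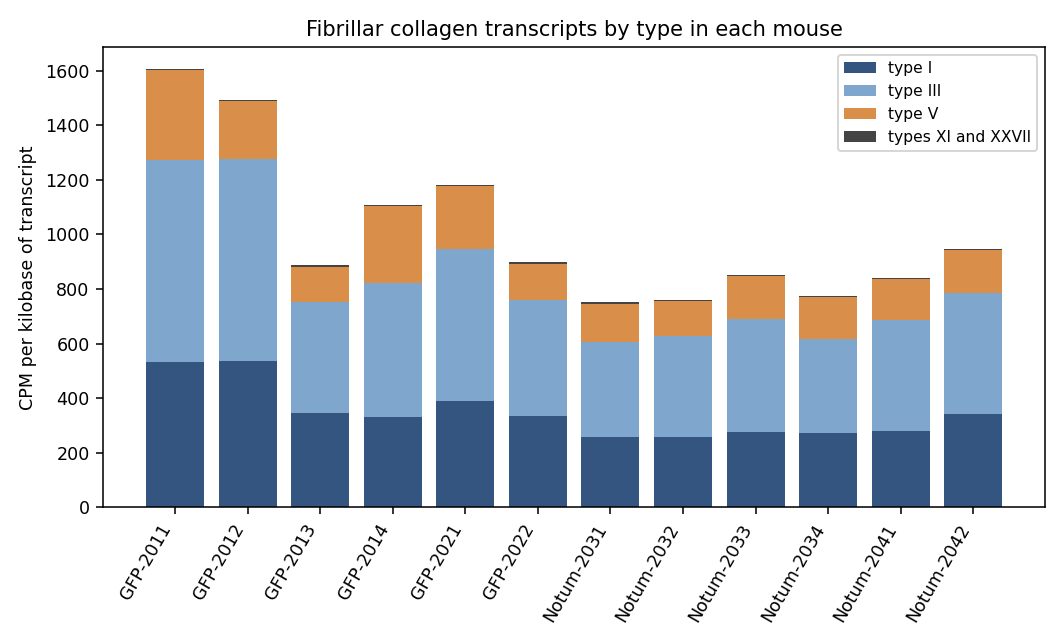
Stacked level of fibrillar collagen transcripts by type in each mouse, in CPM per kilobase of transcript (vertical axis, from 0); colours are collagen types. The bars of AAV-GFP-2011 and AAV-GFP-2012 are the tallest, and type V is widest in AAV-GFP-2011 and AAV-GFP-2014.

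Genes of the pathway that turns these chains into fibrils were read from 9 lists of 102 genes, of which 86 were tested. At an unadjusted p under 0.05 in edgeR's quasi-likelihood test, 29 were lower in the AAV-Notum group and 0 higher, where 9.54% and 4.64% of all genes were, and 1, Thbs2, passed after adjustment over all genes. With DESeq2, 12 of the 86 had an adjusted p under 0.05, all lower, where 2.17% of all genes were. Their median log2 fold change of -0.24 stood against 0.0077 over all genes tested. With the lymphoid marker level as a covariate, 13 were lower, beside 4.85% of all genes, and without AAV-GFP-2011 and AAV-GFP-2014, 18 were, beside 4.95% of all genes.

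The counts by list are given at the same unadjusted p under 0.05, at which 9.54% of all genes were lower. Genes for folding and modifying the chains in the endoplasmic reticulum were lower for 7 of 18, among them Serpinh1, the collagen chaperone (log2 fold change -0.73, unadjusted p = 0.00175), and P4ha1 and P4ha2, subunits of the enzyme that hydroxylates proline in the triple helix (-0.56 and -0.76). For removal of the propeptides, 4 of 8 were lower, with Adamts2, which cuts off the N-terminal propeptide, at -0.78, Bmp1, which cuts off the C-terminal one, at -0.45, and its enhancer Pcolce at -0.54. For cross-linking, 3 of 6 were lower, with Lox, the lysyl oxidase that links the chains, at -1.13 (SE 0.20, adjusted p = 0.0847 in edgeR's quasi-likelihood test), Loxl4 at -0.59 and Loxl2 at -0.35. Proteins that bind the fibril surface were lower for 8 of 15. Of these, Thbs2, a matrix glycoprotein, was at -1.16 (SE 0.13, adjusted p = 0.00917), the proteoglycan Prelp at -1.45 and the tenascin Tnxb at -0.72.

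Collagen receptors were lower for 4 of 8 genes, with Ddr2, a kinase receptor for fibrillar collagen, at -0.48 and the integrin genes Itgb1 and Itga1 at -0.31 and -0.33. Degradation and uptake genes were lower for 2 of 8, Mrc2, an endocytic collagen receptor, at -0.50, and Fap, a fibroblast protease, at -0.30. Of 17 transcription and signalling inputs to the collagen genes, Tgfb3, a growth factor that raises matrix production, was lower (-0.64, unadjusted p = 9.74e-04, adjusted p = 0.130 in edgeR's quasi-likelihood test), but 1 of 17 is no larger a share than that of all genes, and the median of that list was 0.11. Of 5 fibril-associated collagens tested, 0 were lower or higher at an unadjusted p under 0.05 in edgeR or at an adjusted p under 0.05 in DESeq2. The same was so for Col24a1, the fibrillar collagen outside the 9 that passed the filter. The lists were described by these counts and were not tested as sets.

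The genes whose levels were most like those of the type I chains were named by the Pearson correlation of log2 CPM with the mean of Col1a1 and Col1a2 over the 12 mice, with each group centred on its own mean. The 5 highest outside the family were Dcn (r = 0.977), Nav1 (0.955), Fap (0.953), Eml1 (0.941) and C1qtnf1 (0.928). Dcn encodes decorin, a proteoglycan on the fibril surface. Within the family, Col3a1 had r = 0.916, Col5a2 0.729, Col5a1 0.706, Col5a3 0.418, Col11a1 0.411, Col27a1 -0.269 and Col11a2 -0.620. These are descriptions without a p, and the points share the libraries and their differences in cell content.

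Sequence just upstream of the start site was read from RefSeq's promoter table (GRCm38.p6) for 7 of the 9 genes, and Col1a1 and Col5a2 had no entry there. The promoters of Col3a1 and of the type V chains Col5a1 and Col5a3 are shown, 5′ to 3′ on the strand of the gene, as genes lower at an unadjusted p under 0.05 whose RefSeq start matches that of GENCODE. They are at chr1:45311288-45311537 (plus strand), chr2:27886175-27886424 (plus strand) and chr9:20815068-20815317 (minus strand). Capitals mark matches on either strand to the letters TATAAA, which form the core of the TATA element. They also mark CCAAT, the element bound by nuclear factor Y, and GGGCGG, the element bound by the Sp family of factors. The last letters marked are CAGAC, the core of the element bound by SMAD proteins.
Col3a1 promoter: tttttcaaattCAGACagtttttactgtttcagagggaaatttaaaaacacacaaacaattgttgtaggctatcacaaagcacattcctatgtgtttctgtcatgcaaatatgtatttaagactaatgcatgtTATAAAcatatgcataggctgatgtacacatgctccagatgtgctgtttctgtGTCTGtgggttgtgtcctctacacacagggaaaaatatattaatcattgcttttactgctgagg
Col5a1 promoter: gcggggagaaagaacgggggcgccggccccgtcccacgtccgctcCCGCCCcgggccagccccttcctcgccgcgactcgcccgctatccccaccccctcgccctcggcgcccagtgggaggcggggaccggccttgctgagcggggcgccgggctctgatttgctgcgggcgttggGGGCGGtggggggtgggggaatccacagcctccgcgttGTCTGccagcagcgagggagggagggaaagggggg
Col5a3 promoter: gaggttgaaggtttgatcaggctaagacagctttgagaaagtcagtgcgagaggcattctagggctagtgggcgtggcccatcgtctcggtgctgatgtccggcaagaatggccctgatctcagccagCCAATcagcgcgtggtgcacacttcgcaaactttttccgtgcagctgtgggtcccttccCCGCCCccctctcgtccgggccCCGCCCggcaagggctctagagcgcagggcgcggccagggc
Col3a1 held 1 TATAAA and 2 CAGAC, Col5a1 held 2 GGGCGG and 1 CAGAC, and Col5a3 held 1 CCAAT and 2 GGGCGG. The GC content was 35.2% in Col3a1, 76.4% in Col5a1 and 62.8% in Col5a3, and 62.0% in Col1a2. Col1a2 held 1 CCAAT, 2 GGGCGG and 1 CAGAC, and is not printed because the start in RefSeq lies inside the gene as GENCODE places it. Of 32851 RefSeq promoters cut to the same window, 12.4% held TATAAA, 33.9% CCAAT, 32.7% GGGCGG and 42.2% CAGAC, so holding a match was not rare. How many held 2 matches was not counted. A match is a description of letters and not of binding.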

How the data were processed

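Total RNA of iWAT from 12 mice was sequenced by the authors after TruSeq library preparation. The submitters' processing notes name FastQC, STAR 2.3.1, DESeq2 and mm10, and the counting program and annotation are not given in the sources used here. The authors deposited a table of raw counts, whole reads per gene, which was the basis of all tests. They also deposited normalized log2 values, log2 of reads over a size factor plus 1, used as an alternative. Undoing the scaling gave whole reads for 100% of those values (tolerance 2% of a read, wider above 100 reads). For the 6 chains of types I, III and V these reads were 98.3 to 103.7% of the raw reads. Multi-mapped reads and strand are likewise not described in those sources. Gene models that overlap the 9 genes held few reads, at most 46 per mouse for Gm38211 within Col5a2.

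The tests used edgeR 4.0.16 (R 4.3.3): filterByExpr (minimum count 10, minimum total count 15), TMM, estimateDisp, glmQLFit and the two-sided quasi-likelihood test without covariates, with Benjamini-Hochberg adjustment over 15585 genes and a threshold of 0.05. A prior count of 2 was used for log2 CPM. Standard errors were obtained from the log2 fold change and the F statistic. Exact permutation tests ran over each of the 924 ways to assign 6 of 12 mice, so that the smallest p is 0.00216, and intervals are the shifts they did not reject at 0.05. Positions are from GENCODE vM21 of GRCm38.

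Named were the 9 genes, Notum, the 5 genes most like type I and, per pathway list, up to 3 genes of smallest unadjusted p under 0.05. Pdgfra, Gsn, Thy1, Dpp4, Icam1, Ly6a, Cd163, Acta2, Col24a1, Matn3 and Gm38211 were named after their values were seen. The 9 genes and all lists were chosen with earlier results of these data known. Alternatives were DESeq2 1.42.0, limma-voom (limma 3.58.1), RLE size factors, other filters, a prior count of 0.5, covariates, the normalized values, reads not divided by length and mice left out.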

Additional observations from a re-analysis of the deposited data

Results flagged for a closer look

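Over the 9 genes and 11 ratios, 40 groups of 6 mice were looked at for a mouse standing apart, by the distance to the next value as a part of the group's range, and 4 were found where chance gives about 1 in 20, or 2. AAV-Notum-2042 had 1032 CPM of Col1a2 against 779 to 861 CPM in the other 5 AAV-Notum mice, and 2.72 CPM of Col11a1 against 0.21 to 1.08 CPM. That mouse also had the highest skeletal muscle marker sum, 4424 CPM; whether the 2 go together was not tested. AAV-GFP-2014 had a log2 Col5a2/Col3a1 of -2.99 against -3.55 to -3.34 in the other 5 AAV-GFP mice. AAV-GFP-2013 had a log2 Col11a1/Col5a1 of -6.41 against -8.56 to -8.25, with 41 reads of Col11a1.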

How the results depend on the processing

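The log2 fold changes of Col1a1, Col1a2, Col3a1, Col5a1, Col5a2 and Col5a3 were negative under every alternative run. With limma-voom, and with the normalized values, 5 members had an unadjusted p under 0.05 in place of 6. Col5a3, at -0.44 in both, was the member lost. DESeq2, run with its own filter, size factors and test together, gave 3 members with an adjusted p under 0.05 in place of 0. With the lymphoid marker level as a covariate, 3 members and 13 pathway genes were lower in place of 6 and 29, and Col11a2 turned to -0.173; without AAV-GFP-2011 and AAV-GFP-2014, 18 pathway genes were. Col27a1 turned to 0.00336 with limma-voom and 0.0166 with the normalized values, and was -0.204 with the lymphoid covariate. Without those 2 mice the ratios turned for Col5a1/Col1a1 (0.0166), Col5a2/Col1a1 (0.107), Col5a2/Col3a1 (0.0614) and Col11a1/Col5a1 (-0.0802), and Col5a3/Col5a1 rose to 0.323. The causes were not tested.

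With each mouse left out in turn, 5 to 6 members and 22 to 36 pathway genes were lower and 0 members passed after adjustment. Among these fits, the share of all genes that were lower was counted only without AAV-GFP-2012. It was 7.11% there, beside 9.54% with all mice, and 6 members and 23 pathway genes were lower in that fit. In the other fits the counts have no such share to be read against. The log2 fold change was -0.0924 to 0.0536 for Col27a1, -0.995 to -0.0198 for Col11a1 and 0.297 to 0.841 for Col11a2. Ratio differences were 0.0141 to 0.0719 for Col1a1/Col1a2, 0.0102 to 0.0927 for Col3a1/Col1a2, -0.180 to -0.0555 for Col5a1/Col1a1, -0.126 to -0.0595 for Col5a1/Col5a2, -0.0181 to 0.0534 for Col3a1/Col1a1, -0.0803 to 0.0672 for Col5a2/Col1a1, -0.0776 to 0.0338 for Col5a2/Col3a1, -0.222 to 0.436 for Col11a1/Col5a1, 0.120 to 0.277 for Col5a3/Col5a1, 0.803 to 1.72 for Col11a2/Col11a1 (p under 0.05 without AAV-Notum-2042) and 0.390 to 0.619 for Col27a1/Col1a1.

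No paired analysis was possible because the mouse numbers are not shared between the groups. Col11a1 had 4 to 42 reads per mouse and Col11a2 26 to 176, which limits their precision. The scalings tried moved the median of all genes by less than 0.1 on the log2 scale.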
